A study of Homo sapiens with 6 samples.

Results

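CD symbols are given to human genes whose products were catalogued as leukocyte surface antigens in the cluster of differentiation system. The genes described here are the protein-coding genes whose symbol is CD followed by a number and, in some, further letters or digits, with CD34, CD38, CD46, CD55 and CD59 left out. They were chosen by symbol, with earlier results of these data known, and 85 of the 34371 rows of the count table met the rule. CD300H is among them because RefSeq lists it as coding, although GENCODE 29 does not.

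All libraries came from ME-1, a human acute myeloid leukaemia line with the fusion gene CBFB::MYH11. The SPNS2 cells had been transduced with a vector that overexpresses SPNS2, an exporter of sphingosine-1-phosphate, and the CTRL cells with the empty vector. Both had gone through selection of infected cells before polyadenylated RNA was sequenced, in 3 SPNS2 and 3 CTRL libraries. The labels give neither the time after infection nor whether libraries of a group were separate cultures, so the p-values may measure technical spread alone. The comparison asks which surface antigens of a leukaemic myeloid cell differ at the RNA level when SPNS2 is added.

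CD antigens are a mixed set. Some are scaffold proteins of the tetraspanin family that organise other receptors in the membrane, some are adhesion molecules, and many are immunoglobulin-like receptors with inhibitory or activating tails. Clinical laboratories read them by flow cytometry to tell myeloid from lymphoid leukaemia and to follow maturation, and several, among them CD33 and CD52, are antibody targets. RNA counts do not measure the protein at the surface. In bulk RNA, fewer cells with an antigen and less RNA per cell cannot be told apart.

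Library totals were 31361562 to 33540256 counts in SPNS2 and 28605187 to 38489992 counts in CTRL. The vector SPNS2 row averaged 778 ± 12.9 CPM in SPNS2 and 0.113 ± 0.117 CPM in CTRL libraries (SD, n = 3 each), where CPM is the count per 1e6 counts of the scaled library total. A separate row for the SPNS2 gene of the cells averaged 50.5 ± 1.80 CPM in SPNS2 and 42.6 ± 1.92 CPM in CTRL (SD, n = 3 each; edgeR adjusted p = 0.00166). The summed level of 6 myeloid blast markers was 28147 to 29585 CPM in SPNS2 and 28248 to 28810 CPM in CTRL libraries, most of it MPO, the myeloperoxidase of granules, at 26003 ± 759 and 26140 ± 221 CPM in SPNS2 and CTRL (SD, n = 3 each). Of the other 5, KIT rose, CD33 and PRTN3 fell, ELANE was not called, and AZU1 had counts in 1 SPNS2 library alone. PRTN3 lost its call without each SPNS2 library in turn and without CTRL library 2 or 3 (adjusted p up to 0.113 over all alternatives). Monocyte markers were low, with 5 genes summing to 14.8 to 16.5 CPM in SPNS2 and 14.2 to 15.2 CPM in CTRL libraries. Of these 5, CSF1R rose, LYZ fell, FCN1 was not called, and CD14 and CD163 were not tested. LYZ was at 6.71 ± 0.761 CPM in SPNS2 and 8.38 ± 0.487 CPM in CTRL (SD, n = 3 each), with an edgeR adjusted p of 0.0386. Its call was lost without SPNS2 library 1 or 2 and without each CTRL library in turn (adjusted p up to 0.146 over all alternatives). Fibroblast, erythroid and megakaryocyte lists of 3, 5 and 4 genes summed to at most 0.246, 0.176 and 3.22 CPM in any library.

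Of the 85 genes, 47 had enough counts to be tested and 38 did not. Among the 38, 17 had no count in any library, and the other 21 had 1 to 50 counts summed over the 6 libraries. A count of 0 in a library allows up to 0.0778 to 0.105 CPM, a limit that covers counting error only. The genes without a count included the T cell antigens CD2, CD5, CD28 and CD8B, the costimulatory ligand CD80, the neutrophil antigen CD177 and the Langerhans cell lectin CD207. CD160, CD8B2, CD40LG, CD1A, CD1B, CD1E, CD163L1, CD164L2, CD300E and CD300LD made up the rest of these 17. CD14, the lipopolysaccharide coreceptor that marks monocytes, had 4 counts over the 6 libraries, and CD163, a macrophage scavenger receptor, had 1. CD274, the checkpoint ligand also called PD-L1, and CD86, a costimulatory ligand, had 7 counts each. CD9 and CD36, both common on platelets, had 33 and 23 counts. CD27, CD70, CD3D and CD300H had 1 count each, CD1C and CD200R1 had 2, CD300LB had 3, CD6 had 6, and CD248 and CD5L had 8. CD209, CD300LG, CD3G, CD101 and CD7 came closest to being tested beside CD9 and CD36, with 16, 25, 26, 49 and 50 counts.

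Of the 47 genes tested, 19 rose and 6 fell with SPNS2 at an adjusted p under 0.05 (edgeR quasi-likelihood test, adjusted over all 13308 features tested). Of all features tested, 24.5% were called, 11.9% as higher and 12.6% as lower in SPNS2. These shares also stand beside the counts of each role group and of the TSPAN list below. Among the CD genes 40.4% rose and 12.8% fell. Their median difference was 0.05 log2 units, against 0.00 over all features, where log2 units are the log2 of SPNS2 over CTRL in the edgeR fit. The groups did not overlap for 30 of the 47 genes, or 63.8%, against 40.1% of all features. These included all 25 called genes. A log2 fold change of at least 0.5 in either direction, called or not, was seen for 12 genes, or 25.5%, against 6.75% of all features. Of the 11 called genes of that size, 8 had a mean under 5 CPM over the 6 libraries, as did 19 of the 47 CD genes tested. The 6.75% of all features was not matched for level. At 5 CPM or more, 12 of 28 CD genes rose and 5 fell, so 60.7% were called, against 28.9% of all features at that level.

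**Figure D1:**
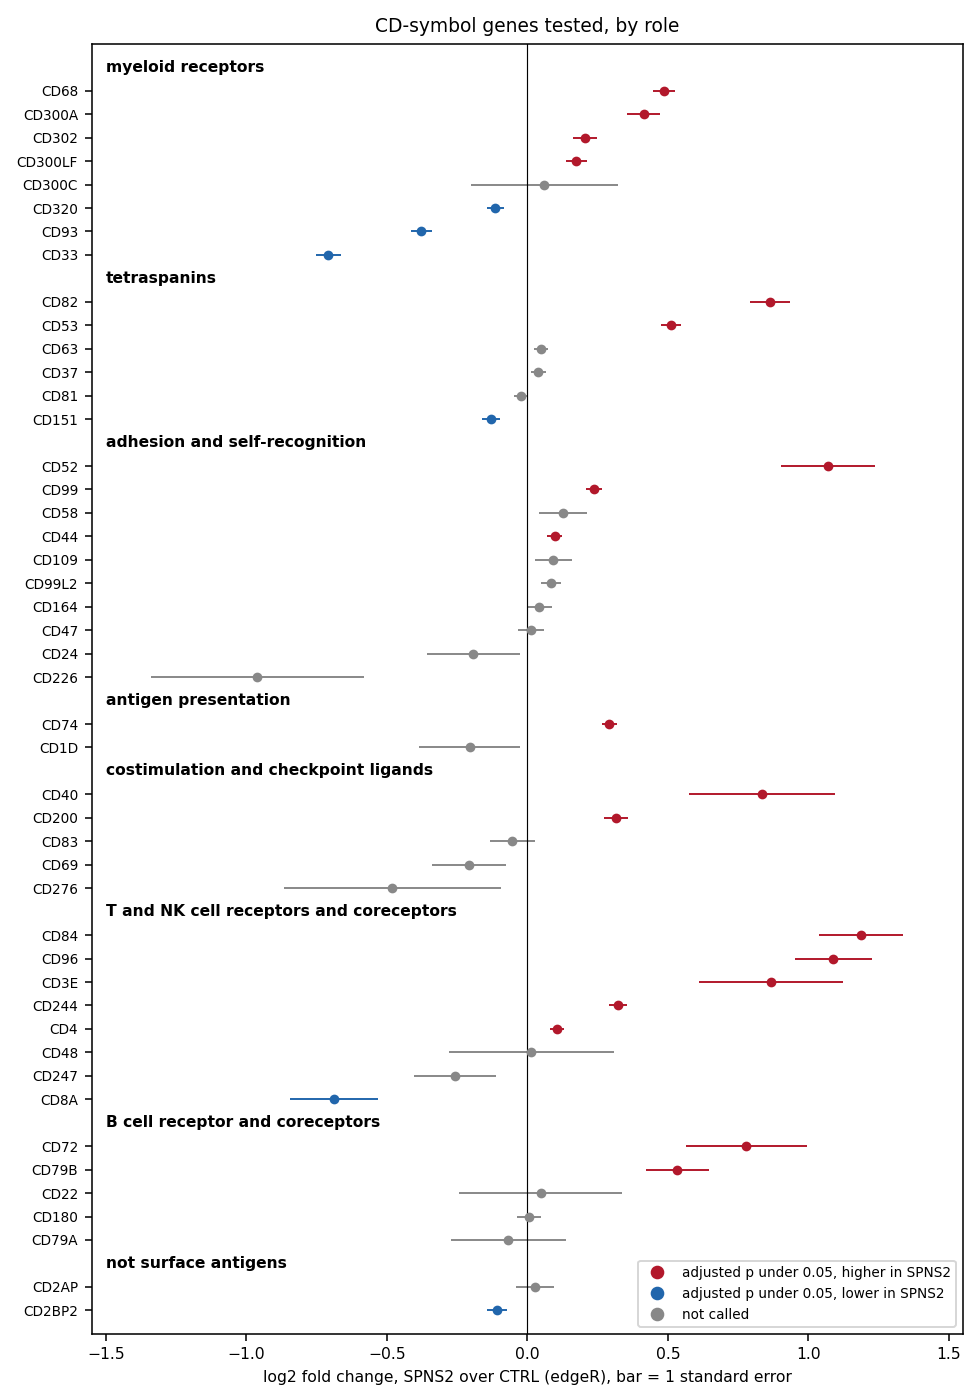
Log2 fold change of SPNS2 over CTRL for 46 of the 47 CD-symbol genes tested, ordered by role, with bars of 1 standard error from edgeR. Red points are the 19 genes that rose, blue points the 6 that fell, and grey points were not called; the widest bar belongs to CD276.

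Scaled to the length of the longest coding transcript, the most abundant antigen was CD37. This tetraspanin stood at 239 CPM per kb in SPNS2 and 232 CPM per kb in CTRL libraries. CD81, another tetraspanin, stood at 226 and 229 CPM per kb in SPNS2 and CTRL. CD99, an adhesion glycoprotein, had 179 CPM per kb in SPNS2 and 152 CPM per kb in CTRL, and CD63, a tetraspanin of late endosomes, had 160 and 155 CPM per kb. CD74 and CD4 followed, at 103 and 93.0 CPM per kb in SPNS2 and 84.2 and 86.5 CPM per kb in CTRL libraries. At the low end of the tested genes, CD276 and CD226 were under 0.2 CPM per kb in both groups. The transcript lengths come from GENCODE 29, and the isoforms these cells use were not analysed here.

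**Figure D2:**
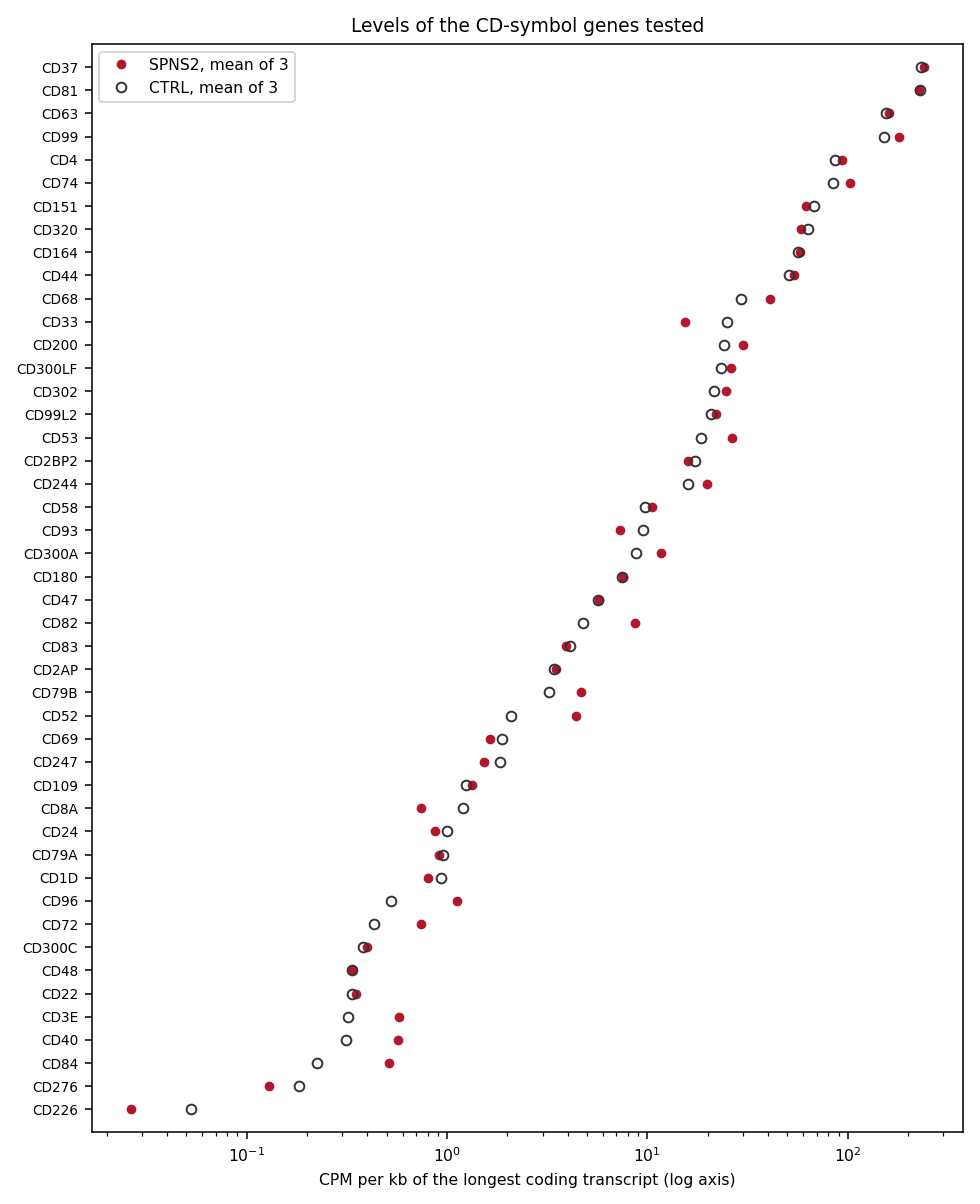
Mean level of 46 tested CD-symbol genes in CPM per kb of its longest coding transcript on a log axis, with SPNS2 as filled red and CTRL as open black circles (3 libraries each). Levels run from under 0.1 for CD226 to over 200 for CD37 and CD81, and the separation of the circles is widest among genes of the lower part of the range.

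Promoter sequences are given for the largest fall and the largest rise that have an entry in the RefSeq promoter table (GRCh38.p14). Their part in these changes was not tested. Each run is the 250 bases before the annotated start, 5′ to 3′ on the strand of the gene. Capitals mark matches on either strand to 5 short motifs: GGAAGT (ETS factors), TGTGGT (RUNX, the partner of CBFB), TGANTCA (AP-1), CACGTG (E-box) and an interferon response element. CD33 lies on the plus strand at chr19:51224830-51225079 and CD96 on the plus strand at chr3:111541947-111542196.
CD33: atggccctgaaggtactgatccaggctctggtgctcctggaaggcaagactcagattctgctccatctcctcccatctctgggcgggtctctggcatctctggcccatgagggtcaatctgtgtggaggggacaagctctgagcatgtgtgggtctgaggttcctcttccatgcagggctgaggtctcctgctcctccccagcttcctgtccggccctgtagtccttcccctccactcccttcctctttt
CD96: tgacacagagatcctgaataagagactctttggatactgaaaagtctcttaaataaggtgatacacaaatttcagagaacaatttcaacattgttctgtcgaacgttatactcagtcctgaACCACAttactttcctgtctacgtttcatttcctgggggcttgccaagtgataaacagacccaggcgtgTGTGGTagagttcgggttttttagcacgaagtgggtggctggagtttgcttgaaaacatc
The CD33 window held none of these letters, and the CD96 window held TGTGGT once on each strand, starting 60 and 129 bases before the annotated start. The TGTGGT letters stood in 8.82% of 15060 coding promoters of this length, in 2 of the 13 windows of CD genes that rose and in 0 of the 4 of CD genes that fell. GGAAGT stood in 21.5% of all windows, in 3 of those 13 and in 1 of those 4. TGANTCA stood in 4.93% of all windows, in 2 of those 13 and in 0 of those 4. For CACGTG these values were 7.82%, 0 and 1, and for the interferon element 2.71%, 0 and 0. Among the windows of all CD genes tested, 3 held TGTGGT (8.82%), 10 GGAAGT (29.4%), 5 TGANTCA (14.7%), 3 CACGTG (8.82%) and 0 the interferon element. A match is a description of the letters only, and 34 of the 47 genes tested had a window. CD84 had none.

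Genes listed here as myeloid receptors moved in both directions. The list is broad, and also holds the vitamin B12 receptor CD320 and the lysosomal protein CD68. Of 21 genes in this group 8 were tested, of which 4 rose and 3 fell. CD33, a sialic acid-binding inhibitory receptor of myeloid cells and the target of gemtuzumab ozogamicin, had 23.0, 24.0 and 21.8 CPM in SPNS2, against 37.4, 37.4 and 37.5 CPM in CTRL libraries. It fell by 0.71 log2 units (SE 0.0453, edgeR adjusted p = 2.45e-06), and every SPNS2 library lay below every CTRL library. CD93, a C-type lectin-like glycoprotein of myeloid progenitors and endothelium, had 47.8, 51.2 and 47.8 CPM in SPNS2, against 64.6, 63.3 and 62.6 CPM in CTRL. It fell by 0.38 (SE 0.0359, edgeR adjusted p = 4.31e-05), again without overlap. CD320, the receptor for vitamin B12 bound to transcobalamin, had 71.7, 74.4 and 72.6 CPM in SPNS2, against 77.8, 78.5 and 80.4 CPM in CTRL, with a difference of -0.11 log2 units (edgeR adjusted p = 0.0191). This small fall lost its call without SPNS2 library 1 or 3 or CTRL library 3 (adjusted p = 0.0539 to 0.0756).

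The genes of the myeloid receptor list that rose were led by CD68, a heavily glycosylated protein of macrophage lysosomes. CD68 had 77.8, 79.1 and 73.7 CPM in SPNS2, against 52.7, 56.3 and 55.7 CPM in CTRL, a difference of 0.49 log2 units (SE 0.0384, edgeR adjusted p = 1.21e-05). CD300A, an inhibitory receptor for aminophospholipids, had 22.6, 21.2 and 21.4 CPM in SPNS2 and 17.5, 15.4 and 15.9 CPM in CTRL (0.41 log2 units, SE 0.0588, edgeR adjusted p = 0.000526). Neither gene had overlapping groups. CD300LF, an inhibitory receptor whose mouse ortholog binds ceramide, had 46.6, 48.0 and 48.8 CPM in SPNS2, against 42.7, 40.6 and 43.6 CPM in CTRL. CD302, a C-type lectin receptor, had 96.5, 91.5 and 97.4 CPM in SPNS2, against 77.5, 87.5 and 83.0 CPM in CTRL. Their log2 fold changes were 0.17 and 0.21, each with an adjusted p of 0.00600 by edgeR, and neither had overlapping groups. CD300C, an activating relative, was low at 0.606 ± 0.0379 CPM in SPNS2 and 0.575 ± 0.0924 CPM in CTRL (SD, n = 3 each). In the order of RefSeq genes, CD300A, CD300LB, CD300C, CD300H, CD300LD and CD300E lie side by side on chromosome 17, with CD300LF 1 coding gene further. CD300LB, CD300H, CD300LD and CD300E had 3, 1, 0 and 0 counts.

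Tetraspanins span the membrane several times and gather integrins, receptors and proteases into microdomains. Of 7 with a CD symbol 6 were tested, of which 2 rose and 1 fell. CD82, known as a suppressor of metastasis, had 21.4, 19.8 and 18.0 CPM in SPNS2, against 10.4, 11.1 and 11.1 CPM in CTRL (0.86 log2 units, SE 0.0714, edgeR adjusted p = 1.64e-05). CD53, a tetraspanin restricted to leukocytes, had 41.1, 41.3 and 42.2 CPM in SPNS2, against 28.8, 29.4 and 29.2 CPM in CTRL (0.51 log2 units, SE 0.0359, edgeR adjusted p = 5.01e-06). Both genes were higher in every SPNS2 library than in any CTRL library. CD151, which binds laminin-receptor integrins, had 100.5, 105 and 101 CPM in SPNS2, against 115, 109.9 and 111 CPM in CTRL (-0.13 log2 units, edgeR adjusted p = 0.0121), and lost its call without SPNS2 library 1 (adjusted p = 0.0573).

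The 3 most abundant tetraspanins were not called. CD37 had a difference of 0.04 log2 units (SE 0.0268), CD81, a subunit of the B cell coreceptor and an entry receptor of hepatitis C virus, one of -0.02 (SE 0.0247), and CD63 one of 0.05 (SE 0.0247). Of 22 tetraspanins with TSPAN symbols 14 were tested, 4 rose and 1 fell, and the median was 0.10 log2 units. TSPAN7 had the smallest p, with 111 ± 4.41 CPM in SPNS2 and 79.3 ± 2.94 CPM in CTRL (SD, n = 3 each; 0.48 log2 units, edgeR adjusted p = 1.21e-05). TSPAN18 (0.18 log2 units), TSPAN5 (-0.23 log2 units) and TSPAN17 (0.14 log2 units) had the next smallest p, and each lost its call when single libraries were left out: TSPAN18 without SPNS2 library 1 or 2 or CTRL library 1, TSPAN5 without SPNS2 library 1 or 2 or CTRL library 1 or 3, and TSPAN17 without each of the 6 in turn. The highest adjusted p over all alternatives was 0.0754 for TSPAN18, 0.134 for TSPAN5 and 0.141 for TSPAN17. IGSF8, an immunoglobulin superfamily partner of CD9 and CD81, had a difference of -0.16 log2 units (edgeR adjusted p = 0.0321), and was not called without SPNS2 library 1 or 2 or CTRL library 1 or 3 (up to 0.123 over all alternatives).

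**Figure D3:**
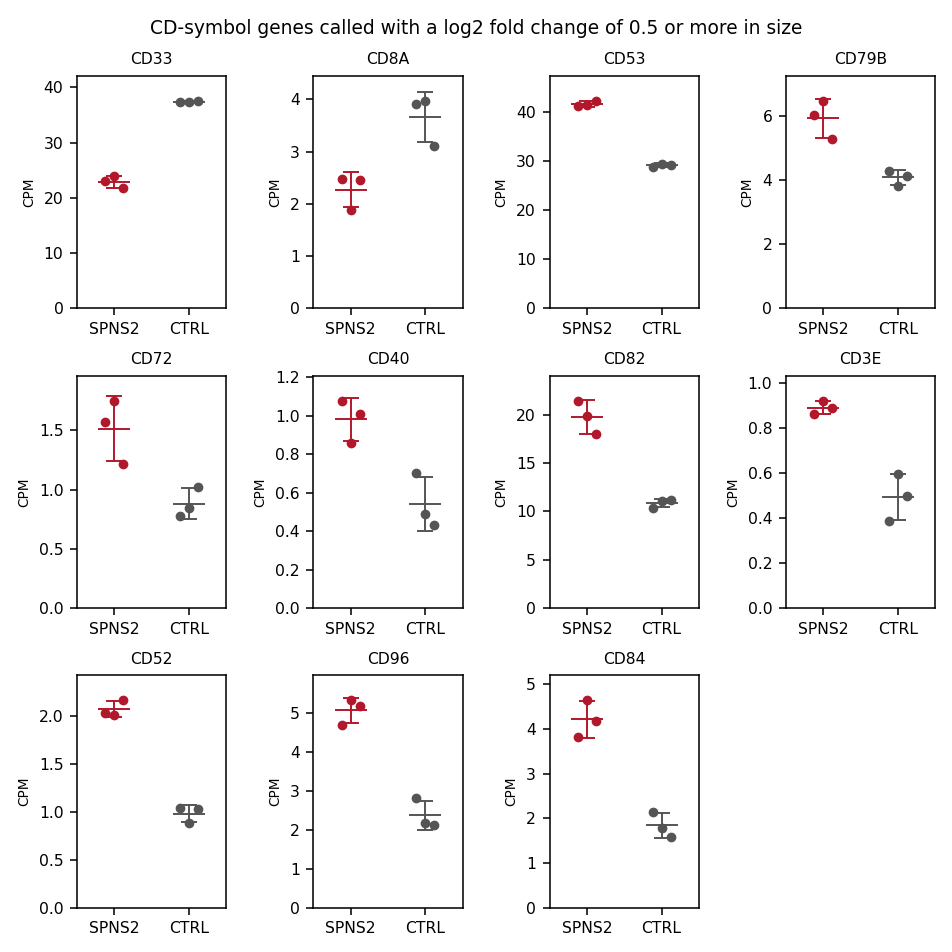
CPM of the 11 CD-symbol genes called with a log2 fold change of at least 0.5 in size, ordered from the largest fall (CD33) to the largest rise (CD84), with SPNS2 left and CTRL right. Points are libraries, the line is the mean and the bar 1 SD of 3 libraries; the groups overlap in none of the 11 panels.

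Of 12 adhesion and self-recognition molecules 10 were tested, 3 rose and none fell. Over all features 11.9% were called higher and 12.6% lower. CD99 had 234, 233 and 228 CPM in SPNS2, against 191, 196 and 202 CPM in CTRL (0.24 log2 units, SE 0.0282, edgeR adjusted p = 0.000170). CD24, CD83, CD84 and CD99 have pseudogenes with rows of their own, so the split of reads between them is uncertain. CD44, the hyaluronan receptor, had 313, 317 and 302 CPM in SPNS2, against 294, 290 and 286 CPM in CTRL (0.10 log2 units, edgeR adjusted p = 0.0210). The call of CD44 was lost without SPNS2 library 1 or 2 or CTRL library 2 or 3 (adjusted p = 0.0635 to 0.0844). CD52, a short glycosylphosphatidylinositol-anchored peptide and the target of alemtuzumab, had 2.04, 2.01 and 2.17 CPM in SPNS2, against 1.04, 0.878 and 1.02 CPM in CTRL. Its difference of 1.07 log2 units (SE 0.168, edgeR adjusted p = 0.000972) rests on 63 to 73 counts per SPNS2 library and 25 to 40 per CTRL library.

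CD47, the signal that restrains phagocytosis, had 30.2, 29.3 and 30.3 CPM in SPNS2 and 28.4, 29.4 and 31.2 CPM in CTRL, with overlapping groups and a difference of 0.01 log2 units (SE 0.0466). Its counter-receptor on myeloid cells, SIRPA, also called CD172a, had 84.5, 84.2 and 83.7 CPM in SPNS2, against 95.3, 101 and 98.9 CPM in CTRL, and fell by 0.23 (SE 0.0310, edgeR adjusted p = 0.000446). CD164, a sialomucin of progenitor cells, CD99L2, a relative of CD99, CD109, a glycosylphosphatidylinositol-anchored protein, and CD58, the ligand of CD2, had log2 fold changes of 0.04 to 0.13 and were not called. CD58 was called without CTRL library 2 (0.23 log2 units, edgeR adjusted p = 0.0473). CD24, a glycosylphosphatidylinositol-anchored mucin, had a difference of -0.19 log2 units (SE 0.166).

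Of 18 receptors best known from T and NK cells 8 were tested, 5 rose and 1 fell, and the 2 largest rises among the CD genes were here. CD84, a receptor of the SLAM family that binds itself on a neighbouring cell, had 3.83, 4.65 and 4.18 CPM in SPNS2, against 2.15, 1.79 and 1.58 CPM in CTRL. The difference was 1.19 log2 units (SE 0.149, edgeR adjusted p = 0.000258). CD244, the SLAM receptor for CD48 and also known on myeloid leukaemia cells, had 49.5, 49.3 and 47.7 CPM in SPNS2, against 38.9, 39.1 and 39.1 CPM in CTRL (0.32 log2 units, SE 0.0325, edgeR adjusted p = 5.71e-05). Both SLAM receptors were higher in every SPNS2 library. CD48, the ligand of CD244, was at 0.602 ± 0.169 CPM in SPNS2 and 0.602 ± 0.0874 CPM in CTRL (SD, n = 3 each; 0.01 log2 units, SE 0.293). CD84, CD48 and CD244 lie close together on chromosome 1, with 1 coding gene between the first pair and 3 between the second.

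CD96, a receptor for PVR that is described on leukaemic stem cells, had 4.69, 5.32 and 5.16 CPM in SPNS2, against 2.80, 2.18 and 2.11 CPM in CTRL (1.09 log2 units, SE 0.137, edgeR adjusted p = 0.000259). CD226, an activating receptor for PVR and NECTIN2 that is counted with the adhesion molecules, had 0.185, 0.382 and 0.415 CPM in SPNS2 and 0.441, 0.667 and 0.838 CPM in CTRL, with 6 to 14 and 17 to 27 counts per library. The groups of CD226 did not overlap, but it was not called (-0.96 log2 units, SE 0.379, edgeR adjusted p = 0.0897). The ligand PVR, also called CD155, fell to 15.2 ± 0.703 CPM in SPNS2, against 19.1 ± 0.946 CPM in CTRL (SD, n = 3 each; -0.33 log2 units, edgeR adjusted p = 0.00210). NECTIN2, or CD112, was at 114 ± 0.773 and 110 ± 2.72 CPM in SPNS2 and CTRL (SD, n = 3 each) and was not called.

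CD4, the coreceptor that monocytes and myeloid leukaemias also carry, was abundant, with 286, 296 and 287 CPM in SPNS2, against 269, 270 and 269 CPM in CTRL (0.10 log2 units, SE 0.0245, edgeR adjusted p = 0.0101). CD8A, the alpha chain of the other T cell coreceptor, had 2.47, 1.88 and 2.46 CPM in SPNS2, against 3.92, 3.97 and 3.10 CPM in CTRL and fell by 0.69 (SE 0.156, edgeR adjusted p = 0.00826). CD3E, a signalling chain of the T cell receptor complex, had 28 to 30 counts per SPNS2 library and 15 to 17 per CTRL library, or 0.864, 0.923 and 0.890 CPM in SPNS2, against 0.389, 0.597 and 0.497 CPM in CTRL. Its difference of 0.87 log2 units (edgeR adjusted p = 0.0298) lost its call without each SPNS2 library in turn and without CTRL library 1 or 3 (adjusted p = 0.0723 to 0.109), and with DESeq2 (0.121). CD247, the zeta chain, had a difference of -0.26 log2 units (SE 0.145) and was not called. The other T cell markers were at or near 0: CD2 had 0 counts, CD3D and the T cell receptor gene TRAC 1 each and CD3G 26 over the 6 libraries. The 5 markers together summed to 0.926 to 1.08 CPM in SPNS2 and 0.590 to 0.773 CPM in CTRL libraries, most of it CD3E itself. The 4 NK cell markers summed to 8.01 to 8.56 CPM in SPNS2 and 7.18 to 7.42 CPM in CTRL libraries, 2 were tested, none was called, and their part in these results was not tested.

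Among the 6 B cell antigens, all tested, 2 rose and none fell, against 11.9% of all features called higher and 12.6% called lower. CD79B, a signalling chain of the B cell receptor, had 6.02, 6.46 and 5.28 CPM in SPNS2, against 4.28, 3.83 and 4.13 CPM in CTRL (0.53 log2 units, SE 0.112, edgeR adjusted p = 0.00541). Its partner chain CD79A was at 1.15 ± 0.193 CPM in SPNS2 and 1.20 ± 0.118 CPM in CTRL (SD, n = 3 each; -0.07 log2 units, SE 0.204). CD72, an inhibitory coreceptor, had 1.57, 1.75 and 1.22 CPM in SPNS2, against 0.778, 0.843 and 1.02 CPM in CTRL (0.78 log2 units, edgeR adjusted p = 0.0226). The call of CD72 was lost without SPNS2 library 1 or 2 or CTRL library 1 or 2 (adjusted p = 0.0615 to 0.0915) and with DESeq2 (0.0612). CD22, an inhibitory coreceptor of B cells, had a difference of 0.05 log2 units (SE 0.290).

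CD180, a Toll-like receptor relative, had 39.6, 41.8 and 40.0 CPM in SPNS2 and 40.3, 42.3 and 38.5 CPM in CTRL, with overlapping groups. LY86, the protein that carries CD180 to the surface, was at 2.73 ± 0.156 CPM in SPNS2 and 1.93 ± 0.249 CPM in CTRL (SD, n = 3 each; 0.49 log2 units, edgeR adjusted p = 0.0322). LY86 was not called without SPNS2 library 1 or 2 or CTRL library 2 or 3 (up to 0.103 over all alternatives). The summed level of 5 B cell markers was 12.9 to 14.0 CPM in SPNS2 and 10.4 to 11.5 CPM in CTRL libraries, with MS4A1, or CD20, at 0. PAX5, the B cell transcription factor, was at 4.21 ± 0.331 and 3.29 ± 0.357 CPM in SPNS2 and CTRL (SD, n = 3 each) and was not called (edgeR adjusted p = 0.0621). The sum includes CD79B, and the part of these markers in the result was not tested.

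CD74 is the invariant chain that escorts class II molecules and also serves as a receptor for the cytokine MIF. It had 181, 177 and 176 CPM in SPNS2, against 145, 147 and 145 CPM in CTRL, with a difference of 0.29 log2 units (SE 0.0262, edgeR adjusted p = 2.79e-05). CIITA, the class II transactivator, had 1.79, 1.66 and 1.99 CPM in SPNS2, against 0.778, 0.738 and 0.807 CPM in CTRL (1.22 log2 units, SE 0.184, edgeR adjusted p = 0.000778). For both genes all SPNS2 libraries lay above all CTRL libraries. HLA-DMA, a class II peptide-loading subunit, ranged from 1.33 to 3.47 CPM in SPNS2 and from 1.37 to 3.66 CPM in CTRL and was not called. HLA-DRA, the alpha chain of a class II molecule, had 0 counts in SPNS2 and 1 count in CTRL, each summed over 3 libraries. How reads were assigned among HLA genes was not tested, so these counts do not show that class II RNA was absent. MIF fell to 383 ± 2.21 CPM in SPNS2, against 448 ± 11.4 CPM in CTRL (SD, n = 3 each; -0.23 log2 units, edgeR adjusted p = 0.000114). Of the CD1 lipid-presenting molecules only CD1D was tested, at 1.80 ± 0.200 CPM in SPNS2 and 2.09 ± 0.384 CPM in CTRL (SD, n = 3 each), and it was not called. CD1A, CD1B and CD1E had 0 counts and CD1C had 2.

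**Figure D4:**
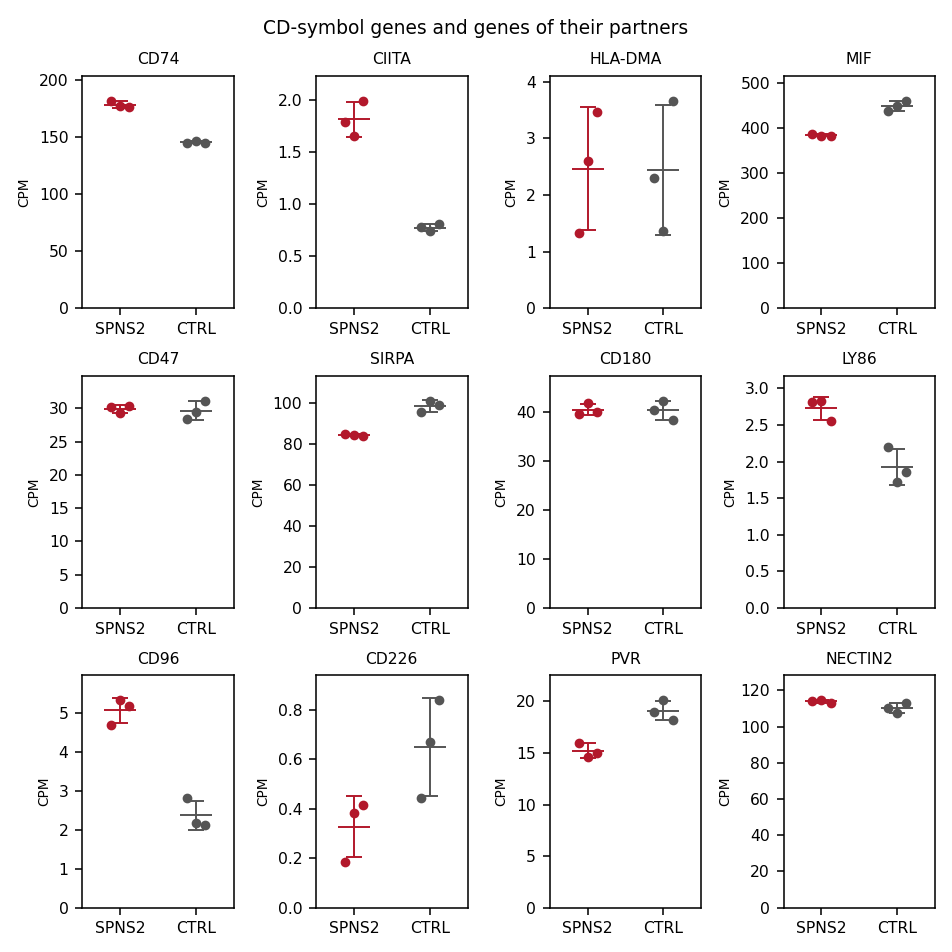
CPM per library of CD74, CD47, CD180, CD96 and CD226 and of genes that encode their partners, with SPNS2 left and CTRL right, mean line and bars of 1 SD (3 libraries each). CD74, CIITA, LY86 and CD96 lie higher in SPNS2, MIF, SIRPA and PVR lie lower, and CD47, CD180 and HLA-DMA overlap between groups.

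Among costimulatory and checkpoint molecules 5 of 12 genes were tested, 2 rose and none fell, against 11.9% higher and 12.6% lower over all features. CD200, a ligand that restrains myeloid cells through its receptor CD200R1 and is known in acute myeloid leukaemia, had 63.5, 61.8 and 65.5 CPM in SPNS2, against 48.3, 53.5 and 51.8 CPM in CTRL. Its log2 fold change was 0.32 (SE 0.0417, edgeR adjusted p = 0.000348), and its groups did not overlap. CD200R1 had 2 counts over the 6 libraries. CD40, the receptor of the tumour necrosis factor family for CD40LG, had 27 to 35 counts per SPNS2 library and 14 to 27 per CTRL library, or 1.08, 0.860 and 1.01 CPM in SPNS2, against 0.700, 0.492 and 0.434 CPM in CTRL (0.84 log2 units, edgeR adjusted p = 0.0373). Its call was lost without each SPNS2 library in turn and without CTRL library 2 or 3 (adjusted p = 0.0584 to 0.120), and with DESeq2 (0.117). CD69, an early activation antigen that binds the sphingosine-1-phosphate receptor S1PR1 in lymphocytes and removes it from the surface, was at 2.73 ± 0.328 CPM in SPNS2 and 3.16 ± 0.0661 CPM in CTRL (SD, n = 3 each; -0.21 log2 units, SE 0.132, edgeR adjusted p = 0.293). CD83, a marker of mature dendritic cells, and CD276, a B7 family ligand, had log2 fold changes of -0.05 (SE 0.0789) and -0.48 (SE 0.386) and were not called.

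Some genes that match the symbol rule do not encode surface antigens. CD2BP2, a spliceosome protein that can bind the CD2 tail, had 54.3, 53.3 and 56.9 CPM in SPNS2, against 60.0, 59.3 and 58.0 CPM in CTRL (-0.11 log2 units, edgeR adjusted p = 0.0413). It lost its call without SPNS2 library 1 or 2 or CTRL library 1, 2 or 3 (adjusted p = 0.0552 to 0.145), with DESeq2 (0.106) and with library totals in place of scaling factors (0.0665). CD2AP, an adaptor of the actin cortex, had a difference of 0.03 log2 units (SE 0.0662), and CD5L, a secreted macrophage protein, had 8 counts. Without these 3 genes, 19 of 45 tested genes rose and 5 fell.

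Antigens that have a CD number but another symbol were described from lists that hold 84 genes in all. Of these 58 were tested, 12 rose and 13 fell, and the median was 0.05 log2 units. Over all features 11.9% were called higher and 12.6% lower, shares that also stand beside the counts of the single lists. In the myeloid list 6 of 25 tested genes rose and 5 fell. CSF3R, the receptor for granulocyte colony-stimulating factor (CD114), was at 1213 ± 11 CPM in SPNS2 and 1015 ± 16.4 CPM in CTRL (SD, n = 3 each; 0.26 log2 units, edgeR adjusted p = 1.61e-05). CSF1R, the receptor for macrophage colony-stimulating factor (CD115), was at 7.04 ± 0.250 and 3.83 ± 0.296 CPM in SPNS2 and CTRL (SD, n = 3 each; 0.88 log2 units, edgeR adjusted p = 0.000142). ITGB2, the beta chain of leukocyte integrins (CD18), fell by 0.28 and FCGR1A, the high-affinity IgG receptor (CD64), by 0.29 on the log2 scale. FUT4, the enzyme that makes the CD15 sugar, was at 117 ± 1.94 CPM in SPNS2 and 133 ± 1.76 CPM in CTRL (SD, n = 3 each; -0.19 log2 units, edgeR adjusted p = 0.000762). ANPEP (CD13) was at 3.09 ± 0.251 CPM in SPNS2 and 3.59 ± 0.279 CPM in CTRL, and ITGAM (CD11b) at 0.533 ± 0.0903 and 0.496 ± 0.0638 CPM in SPNS2 and CTRL (SD, n = 3 each), and neither was called.

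In the progenitor list 2 of 4 tested genes rose and 1 fell. KIT (CD117), the stem cell factor receptor, was at 2287 ± 38.6 CPM in SPNS2 and 1567 ± 21.4 CPM in CTRL, and FLT3 (CD135) at 10.96 ± 1.47 and 4.75 ± 0.508 CPM in SPNS2 and CTRL (SD, n = 3 each). Their log2 fold changes were 0.55 and 1.21 (adjusted p = 3.68e-08 and 4.57e-05 by edgeR). ENG (CD105), a TGF-beta coreceptor, had a difference of -0.11 log2 units (edgeR adjusted p = 0.0238), and was not called without SPNS2 library 2 or 3 or CTRL library 2 or 3 (up to 0.0961 over all alternatives). TFRC (CD71), the transferrin receptor, was the riser among 5 tested erythroid and platelet antigens, at 208 ± 2.30 CPM in SPNS2 and 132 ± 2.74 CPM in CTRL (SD, n = 3 each; 0.65 log2 units). Among other T, B and NK antigens 4 of 15 were tested and IL4R (CD124) fell by 0.43, a call lost without SPNS2 library 1 or 2 or CTRL library 3 (adjusted p up to 0.0601 by edgeR). Of 20 tested broad surface antigens 3 rose and 6 fell, with LAMP2 (CD107b) at 0.21, LRP1 (CD91) at -0.66 and SLC3A2 (CD98) at -0.14 log2 units.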

How the data were processed

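Per the labels' protocols, a TruSeq Stranded mRNA kit was used. Estimated counts were deposited by gene, already as whole numbers, and Salmon is named, per the submitters' processing notes. Its version, the genome build and the annotation: not given in the sources used here. GENCODE 29, RefSeq and a gene name table gave symbols for 29121 of 34370 Ensembl IDs. Transcript lengths came from GENCODE 29, and gene order from RefSeq, used for order only.

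The quasi-likelihood test of edgeR 4.0.16 (R 4.3.3) compared the groups with no covariate, after filterByExpr and TMM scaling, whose factors were 0.993 to 1.01. The filter asked for the CPM equivalent of 10 counts in at least 3 libraries, the size of a group, and for 15 counts in all. Benjamini-Hochberg adjustment ran over all features tested, and calls needed an adjusted p under 0.05. A standard error (SE) is the size of the log2 difference divided by the root of F. Levels are CPM from TMM-scaled totals. Replicates differed beyond sampling noise (chi-square per degree of freedom 3.11 to 6.09). Alternatives were DESeq2 1.42.0, limma 3.58.1 (voom), other scalings and filters, a replicate block and each library left out. The scripts were tested on simulated data. Motifs were searched on both strands in 250-base windows.

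The genes, role lists, partner lists and motifs were chosen with earlier results of these data known. By the rule for named genes every CD gene tested could be named (1 is not reported here), and of each other list at most 4 called genes with the smallest p plus genes given by value. No set test was run. Totals of 28605187 to 38489992 counts limit precision for genes of under 1 CPM, and intervals from counts cover counting error only.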

Additional observations from a re-analysis of the deposited data

How the results depend on the processing

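Over 13 alternatives, 18 of the 25 called CD genes kept their call wherever they were tested, none changed direction, and CD151, CD320, CD44, CD2BP2, CD72, CD3E and CD40 lost theirs in at least 1. The count that rose was 19 and the count that fell 6. Leaving out each library in turn gave 15 to 17 that rose and 3 to 5 that fell, with 3 that fell without SPNS2 library 1, where CD151, CD320 and CD2BP2 were lost. At a mean of at least 5 CPM, 12 rose and 5 fell because 28 CD genes were left to test, and all 17 calls among them were kept. Of the 25 called CD genes, DESeq2 called 21, limma voom 25 and DESeq2 size factors in edgeR 25. Libraries of the same number did not deviate together (r = -0.0193 to 0.0375). This gave no sign of pairing by number, but with 3 libraries per group it cannot exclude pairing. With the replicate block, 17 rose and 5 fell among the CD genes, and 1301 rose and 1422 fell among all features, against 1580 and 1683 without it; CD3E, CD40 and CD2BP2 lost their call (adjusted p = 0.0574, 0.0518 and 0.0788 by edgeR). Depth limits genes such as CD226 and CD276, with 6 to 27 and 7 to 26 counts per library.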

Other observations

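Among genes that encode partners of the CD genes, 4 of 19 tested rose and 6 fell, against 11.9% of all features called higher and 12.6% called lower. TYROBP, an adaptor for activating myeloid receptors, was at 0.759 ± 0.203 CPM in SPNS2 and 0.356 ± 0.104 CPM in CTRL libraries (SD, n = 3 each; 1.09 log2 units, edgeR adjusted p = 0.0341). Its call was lost without SPNS2 library 2 or 3 or CTRL library 1 or 3 (adjusted p up to 0.120 over all alternatives). SYK, the tyrosine kinase downstream of such adaptors, fell to 77.8 ± 0.842 CPM in SPNS2, against 86.8 ± 2.36 CPM in CTRL (SD, n = 3 each; -0.16 log2 units, edgeR adjusted p = 0.00386). LYN, BTK and PLCG2, other signalling enzymes of the same receptors, had log2 fold changes of -0.02, 0.05 and 0.04 and were not called. EZR, which links CD44 to actin, had a difference of -0.11 log2 units (edgeR adjusted p = 0.0171), and was not called without SPNS2 library 2 or 3 or CTRL library 3 (up to 0.0680). The related linkers MSN and RDX, with log2 fold changes of -0.02 and 0.02, were not called. AZU1, a granule protein in the myeloid blast list, had 386 counts in SPNS2 library 2 and 0 in each of the other 5 libraries. Whether these counts reflect expression or the assignment of reads was not tested.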
